A study of Mus musculus with 12 samples.

Results

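The 10 genes described here belong to the calcineurin-NFAT pathway: Ppp3ca, Ppp3cb and Ppp3r1, which encode calcineurin subunits, Nfatc1, Nfatc2 and Nfatc3, which encode NFAT transcription factors, Rcan1 and Rcan2, which encode calcineurin regulators, and Myoz1 and Myoz2, which encode calsarcins. They were chosen by symbol, with earlier results of these data known, and make up 10 of the 23923 genes analysed. All 10 were found in the 12 libraries and all 10 passed the filter on low values (at least 0.1 FPKM in at least 6 samples), which left 12695 genes for testing. FPKM values are fragment counts that have been divided by transcript length and by the size of the mapped library.

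RNA was sequenced from the tibialis anterior, a fast-twitch muscle of the lower leg, of 12 mice aged 6 weeks on the mixed strain C57BL6/J;129S1/SvImJ. The study states that its work after the fiber histology used tissue of males only. The 6 controls were Myf6 cre/+; Smyd1 flox/+ and the 6 Smyd1 CKO mice were Myf6 cre/+; Smyd1 flox/-, with 1 library per mouse, and both groups also carried Rosa26 YFP/+ per the study's methods. The comparison asks how gene expression differs in muscle whose fibers lack SMYD1, a lysine methyltransferase of striated muscle. Both groups carried the Myf6 cre allele, which is active in skeletal muscle cells, and the controls had 1 Smyd1 allele that Cre could recombine, so they are not wild type. The gene-level Smyd1 FPKM averaged 37.4 ± 5.64 in the controls and 34.1 ± 4.36 in the CKOs (SD, n = 6 each), and the groups overlapped (log2 fold change −0.13, limma with Benjamini-Hochberg adjustment, adjusted P = 0.5454). Which part of the gene Cre removes is not given in the sources used here, so this level does not check the genotypes, and groups are those of the labels.

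Calcineurin is a phosphatase that is switched on by calcium and calmodulin. It is built from a catalytic subunit, which Ppp3ca or Ppp3cb can supply, and the regulatory subunit made by Ppp3r1. Active calcineurin dephosphorylates NFAT factors, which then enter the nucleus and, often together with MEF2 factors, switch on target genes. In skeletal muscle this route is known for promoting the slow, oxidative fiber program. Rcan1 is both a target of NFAT and an inhibitor of calcineurin, and the transcript that starts at its internal promoter is widely used as a readout of calcineurin activity. Calsarcins tether calcineurin to the Z-disc through alpha-actinin, with Myoz1 expressed mainly in fast fibers and Myoz2 in slow fibers and the heart.

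The promoter windows of Rcan1 and Myoz2 are shown because these are the genes in the set whose difference between groups passed an unadjusted P of 0.05. They are RefSeq windows on GRCm38.p6, running from 250 bases before to 50 bases after a transcript start and printed 5′ to 3′ on the strand of the gene. Capitals mark the core of the NFAT motif, GGAAA on either strand (TTTCC on the other). In Myoz2 they also mark a loose pattern for the MEF2 motif, CTA and TAG with any 4 bases between them. That loose pattern is called the MEF2 motif below. The internal start of Rcan1 lies inside the first intron of the longer Rcan1 transcript in the GENCODE annotation. The deposited level is a single value per gene, so the transcripts from the internal and the upstream start cannot be told apart in these data.
Rcan1 internal start, chr16:92400029-92400328, minus strand: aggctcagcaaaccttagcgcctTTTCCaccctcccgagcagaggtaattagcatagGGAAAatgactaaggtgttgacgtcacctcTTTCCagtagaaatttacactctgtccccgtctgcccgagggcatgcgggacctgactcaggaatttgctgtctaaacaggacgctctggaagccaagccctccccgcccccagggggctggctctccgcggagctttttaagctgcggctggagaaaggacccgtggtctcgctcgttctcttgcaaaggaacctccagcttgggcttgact
Rcan1 upstream start, chr16:92466120-92466419, minus strand: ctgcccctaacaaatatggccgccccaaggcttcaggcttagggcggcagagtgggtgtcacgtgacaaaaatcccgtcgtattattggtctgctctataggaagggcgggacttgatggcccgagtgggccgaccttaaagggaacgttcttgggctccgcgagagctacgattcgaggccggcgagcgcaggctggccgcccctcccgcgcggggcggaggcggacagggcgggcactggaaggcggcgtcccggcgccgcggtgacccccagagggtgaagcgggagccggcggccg
Myoz2, chr3:123034938-123035237, minus strand: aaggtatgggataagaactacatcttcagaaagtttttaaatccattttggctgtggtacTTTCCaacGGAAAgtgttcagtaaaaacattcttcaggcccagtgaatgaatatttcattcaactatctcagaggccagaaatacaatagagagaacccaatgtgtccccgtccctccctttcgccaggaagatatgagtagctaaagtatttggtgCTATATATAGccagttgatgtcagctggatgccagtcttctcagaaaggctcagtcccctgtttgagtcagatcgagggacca
The internal Rcan1 window held 3 matches to GGAAA and the upstream window held 0. Myoz2 held 2 matches to GGAAA and 1 match to the MEF2 motif. Matches of this kind are common: of 32851 mouse promoter windows of the same length, 61.3% held GGAAA at least once, 26.7% held it at least 2 times, and 3.69% held the MEF2 motif. RefSeq windows were used for 7 of the 10 genes, 12 windows in all. Of these, 7 held GGAAA and 1, that of Myoz2, held the MEF2 motif. Windows on 1 chromosome were left out, so this count does not show that RefSeq lacks windows for the other genes. A match is a match of letters in this window and was not tested as a site of binding.

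In control muscle the most abundant of these transcripts was Myoz1, at 258 ± 36.4 FPKM (SD, n = 6), and its range did not overlap that of any other gene of the set. The calcineurin subunits followed at 24.3 ± 2.59 FPKM for Ppp3r1, 22.8 ± 1.74 FPKM for Ppp3ca and 18.8 ± 2.79 FPKM for Ppp3cb. Next in level were Myoz2 at 15.6 ± 7.31 FPKM, Rcan1 at 9.22 ± 1.52 FPKM and Rcan2 at 9.00 ± 0.963 FPKM. From Ppp3r1 down to Rcan2 each gene overlapped its neighbor in the order, so the ranks of neighbors do not hold beyond the spread between mice. Each of these calcineurin subunits, at 15.3 FPKM or more in every control, was above Rcan1 and Rcan2, at 11.7 FPKM or less. The NFAT factors were the lowest, with Nfatc3 at 4.06 ± 0.377 FPKM overlapping Nfatc1 at 3.13 ± 0.577 FPKM, and Nfatc2 at 0.725 ± 0.140 FPKM below both without overlap. Levels in the text are FPKM as deposited and fold changes are differences of mean log2(FPKM + 0.1), CKO minus control.

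**Figure D1:**
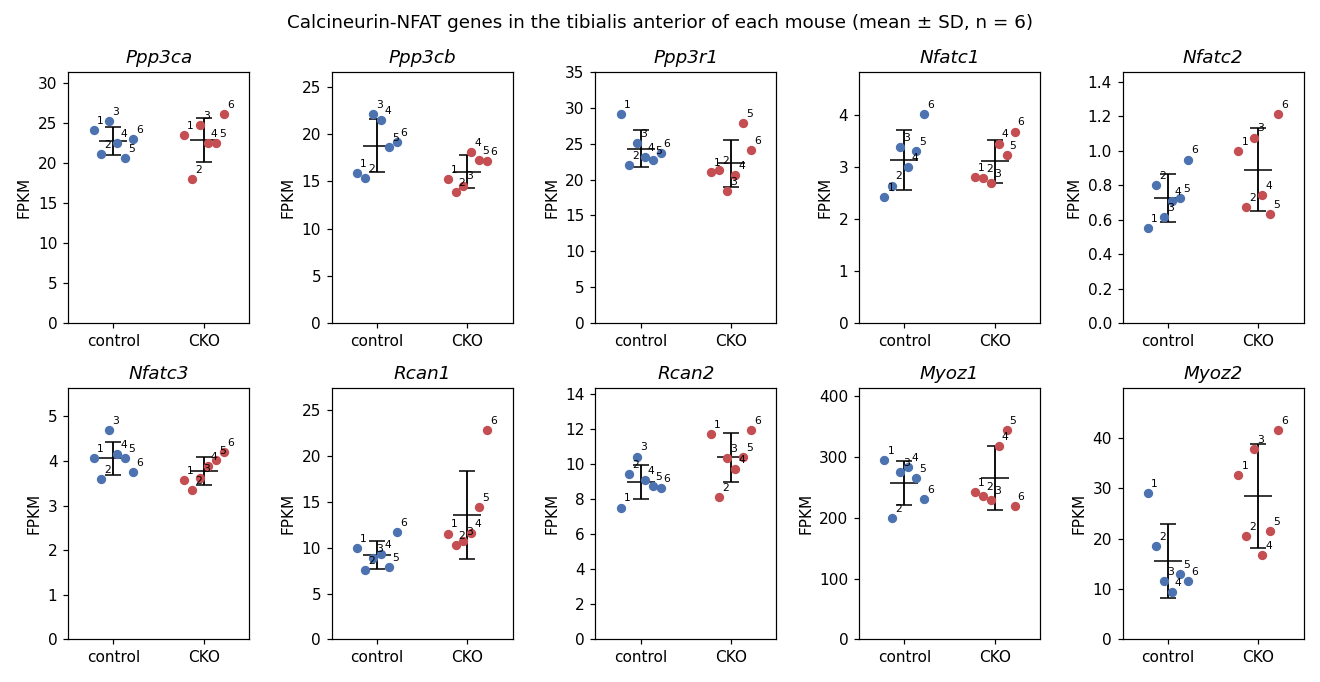
FPKM of the 10 calcineurin-NFAT genes in the tibialis anterior of each mouse, on a separate axis from 0 for each gene. Points are mice, labelled by replicate number, in blue for controls and red for CKOs, and bars are the mean ± SD of 6 mice. The CKO points of Rcan1 and Myoz2 all lie above the control median, with Rcan1 highest in CKO 6 at 22.8 FPKM, while the groups overlap for each gene.

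At an adjusted P of 0.05 (limma, Benjamini-Hochberg over all genes tested), 0 of the 10 genes were higher and 0 were lower in CKO muscle. In the background of all genes tested, 257 genes, or 2.02%, were higher and 34, or 0.268%, were lower by that rule. At an unadjusted P of 0.05, 2 of the 10, Rcan1 and Myoz2, were higher against 18.1% of all genes, and 0 were lower against 1.76%. On the deposited scale the share of the set called higher was thus close to the background. The median log2 fold change was 0.02 over the 10 genes, of which 7 were above 0, and 0.18 over all genes, of which 77.9% were above 0. Median-ratio scaling of the libraries moved the median over all genes to 0.01. On that scale 1 of the 10 genes, Myoz2, was higher at an unadjusted P of 0.05 (limma). By the same rule 4, Ppp3ca, Ppp3cb, Ppp3r1 and Nfatc3, were lower. Of all 12695 genes tested, 841 were higher and 944 were lower by that rule. The share of the set called lower on that scale was thus above that of all genes, and this difference was not tested. None of the 10 passed the adjusted threshold. Because of the shift over all genes, the fold changes below are also given relative to the median of all genes where that matters.

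**Figure D2:**
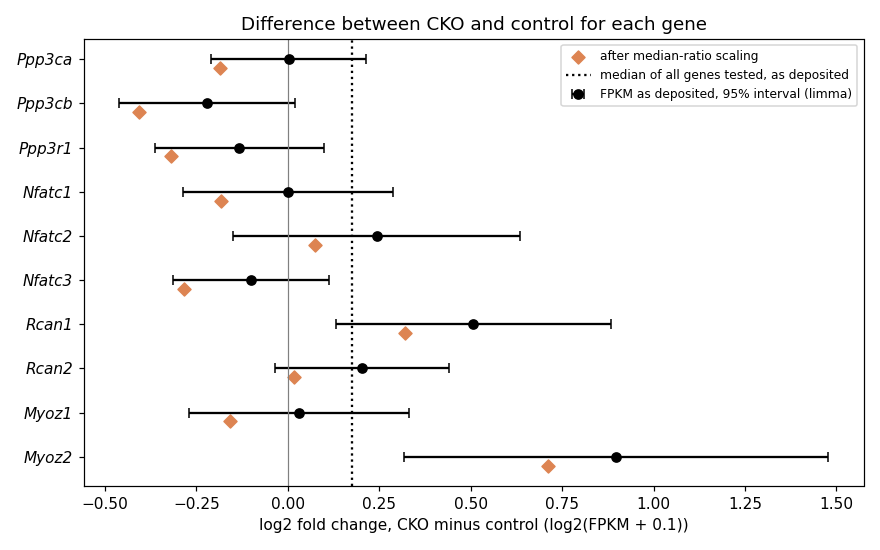
Log2 fold change of each gene, CKO minus control, from log2(FPKM + 0.1). Black points with bars are limma estimates with 95% intervals on the FPKM as deposited, orange diamonds are the estimates after median-ratio scaling, and the dotted line is the median of all genes tested, 0.18. The intervals of Rcan1 and Myoz2 lie above 0, and Ppp3ca, Nfatc1 and Myoz1 change sign with the scaling.

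The catalytic subunit genes showed no difference past the adjusted threshold. Ppp3ca, the more abundant of them, ran from 20.6 FPKM through a median of 22.8 to 25.3 FPKM in controls and from 18.1 through 23.0 to 26.2 FPKM in CKOs. CKO 2 was the lowest and CKO 6 the highest of the 12 mice, and the groups overlapped almost entirely. The log2 fold change was 0.00, with a 95% interval of −0.21 to 0.21 (limma, adjusted P = 0.9921), which spans 0.865-fold to 1.16-fold on the deposited scale. After median-ratio scaling the value was −0.18 (limma, adjusted P = 0.3469).

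Ppp3cb ran from 15.3 through 18.9 to 22.1 FPKM in controls and from 13.8 through 16.2 to 18.1 FPKM in CKOs. CKO 1, 2 and 3 lay below every control and controls 3, 4, 5 and 6 lay above every CKO, while controls 1 and 2, at 15.9 and 15.3 FPKM, lay within the CKO range. Ppp3cb differed by −0.22 on the log2 scale (95% interval −0.46 to 0.02, limma, adjusted P = 0.2898), and by −0.41 after median-ratio scaling (adjusted P = 0.1144).

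The regulatory subunit gene Ppp3r1 ran from 22.1 through 23.4 to 29.2 FPKM in controls and from 18.5 through 21.2 to 27.9 FPKM in CKOs. CKO 1, 2, 3 and 4 lay below all controls, but CKO 5 was the second highest of the 12 mice. Its log2 fold change was −0.13 (95% interval −0.36 to 0.10, limma, adjusted P = 0.5017), and −0.32 after median-ratio scaling (adjusted P = 0.1112). In the GENCODE annotation Ppp3r1 shares 14.3% of its exon bases with Wdr92 on the same strand, so reads in that stretch could have been counted for either gene.

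Of the NFAT factor genes, Nfatc1 was measured at 2.42 to 4.03 FPKM in controls (median 3.15) and 2.70 to 3.69 FPKM in CKOs (median 3.02). All CKO values fell inside the control range, and the log2 fold change was 0.00 (95% interval −0.29 to 0.29, limma, adjusted P = 0.9983). Nfatc3 was measured at 3.60 to 4.69 FPKM in controls (median 4.07) and 3.36 to 4.20 FPKM in CKOs (median 3.75). Only CKO 1 and 2 lay below the controls, and the log2 fold change was −0.10 (95% interval −0.31 to 0.11, limma, adjusted P = 0.5914). With median-ratio scaling the value for Nfatc3 was −0.28 (limma, adjusted P = 0.1634). Nfatc3 shares 1.87% of its exon bases with Esrp2 on the opposite strand, and whether reads were counted by strand is not given in the sources used here.

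Nfatc2, the least abundant of the 10, was measured at 0.552 to 0.948 FPKM in controls (median 0.718) and 0.633 to 1.21 FPKM in CKOs (median 0.870). CKO 1, 3 and 6 lay above every control, and CKO 2, 4 and 5 lay among them. Nfatc2 differed by 0.24 on the log2 scale (95% interval −0.15 to 0.64, limma, adjusted P = 0.4662). CKO 1, 3 and 6 were also the CKO mice with the highest Myoz2.

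Rcan1, the activity readout of the set, was at 9.93, 7.52, 8.89, 9.34, 7.91 and 11.7 FPKM in controls 1 to 6 and at 11.5, 10.3, 10.7, 11.6, 14.4 and 22.8 FPKM in CKOs 1 to 6. All 6 CKO values were above the control median of 9.12 FPKM, but only CKO 5 and 6 exceeded the highest control, control 6. Controls averaged 9.22 ± 1.52 FPKM and CKOs 13.6 ± 4.76 FPKM (SD, n = 6 each). This was a log2 fold change of 0.51 ± 0.18 (SE), or 1.42-fold (95% interval 1.10 to 1.85), with an unadjusted P of 0.01157 and a limma adjusted P of 0.1378. Relative to the median of all genes the difference was 0.33 on the log2 scale. After median-ratio scaling it was 0.32 with an unadjusted P of 0.08031 and an adjusted P of 0.4301. CKO 6 stood apart from the other CKOs. Without it the CKO mean was 11.7 ± 1.62 FPKM (SD, n = 5) and the log2 fold change was 0.35 ± 0.13 (SE; limma, adjusted P = 0.2015).

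Rcan2, the paralog of Rcan1, ran from 7.53 through 8.94 to 10.5 FPKM in controls and from 8.15 through 10.4 to 11.97 FPKM in CKOs. CKO 1 and 6 exceeded the highest control and CKO 2 lay below most controls. Its difference was 0.20 on the log2 scale (95% interval −0.03 to 0.44, limma, adjusted P = 0.32), near the median of all genes, and 0.02 after median-ratio scaling. Of the summed FPKM of Rcan1, Rcan2 and Rcan3, Rcan1 made up 49.4% ± 5.44 in the controls and 54.5% ± 6.08 in the CKOs (SD, n = 6 each).

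Myoz1 was measured at 199 to 295.5 FPKM in controls (median 269.8) and 219.6 to 344.6 FPKM in CKOs (median 239.2). CKO 4 and 5 were the highest of the 12 mice, and the other CKOs lay among the controls. The log2 fold change was 0.03 (95% interval −0.27 to 0.33, limma, adjusted P = 0.923), and −0.16 after median-ratio scaling.

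Myoz2 was at 29.1, 18.5, 11.6, 9.47, 13.0 and 11.7 FPKM in controls 1 to 6 and at 32.6, 20.6, 37.8, 16.7, 21.6 and 41.6 FPKM in CKOs 1 to 6. Controls 3, 4, 5 and 6 lay below every CKO, and CKO 1, 3 and 6 lay above every control. The groups overlapped through controls 1 and 2. Controls averaged 15.6 ± 7.31 FPKM and CKOs 28.5 ± 10.2 FPKM (SD, n = 6 each), and the log2 fold change was 0.90 ± 0.27 (SE), or 1.86-fold (95% interval 1.25 to 2.78). The unadjusted P was 0.004832 and the limma adjusted P was 0.09525, and 6 of 6 CKOs were above the control median. Relative to the median of all genes the difference was 0.72 on the log2 scale, and after median-ratio scaling it was 0.71 (limma, adjusted P = 0.1983).

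Leaving out control 1, the control with the highest Myoz2, changed the call of Myoz2. Without it the controls averaged 12.8 ± 3.41 FPKM (SD, n = 5), the log2 fold change was 1.10 ± 0.23 (SE), and the limma adjusted P was 0.01238. The same library had the highest summed level of the 5 fibroblast markers, 679.8 FPKM against 177.4 to 224.3 FPKM in the other controls and 242.7 to 403.5 FPKM in CKOs. It also had the highest summed level of the 6 macrophage markers, 11.8 FPKM against 2.96 to 5.54 FPKM in the other controls and 4.01 to 9.03 FPKM in CKOs. Its muscle fiber markers were the highest too, at 26520 FPKM against 14300 to 20530 FPKM in the other mice. So were its smooth muscle and tendon markers and its FPKM summed over all genes. Its endothelial, lymphoid, satellite cell, Schwann cell and adipocyte markers were not the highest. The part of these traits of the library in the level of Myoz2 was not tested. Control 1 was the only one of the 12 mice left out that carried Myoz2, or any of the 10 genes, past the adjusted threshold. Without control 1, 1067 of all genes were higher at that threshold, against 257 with every mouse. With sample weights and every mouse kept, the adjusted P of Myoz2 was 0.009834 (limma).

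Ratios between paralogs within a library hardly depend on a scaling by a single factor per library. Quantile normalization is not of that kind, and the ratios were not compared after it. In all, 4 ratios were compared by a two-sided exact permutation test over every assignment of the mice to groups of 6. The smallest possible P of this test is 0.002165. Log2 of Myoz2 to Myoz1 averaged −4.14 ± 0.626 in the controls and −3.27 ± 0.759 in the CKOs (SD, n = 6 each), so it differed by 0.87, or 1.82-fold in the ratio (exact permutation P = 0.06277, adjusted over the 4 ratios 0.1472). CKO 1, 3 and 6 lay above every control in this ratio. Log2 of Ppp3cb to Ppp3ca averaged −0.29 ± 0.204 in the controls and −0.51 ± 0.176 in the CKOs (SD, n = 6 each), so it differed by −0.22 (exact permutation P = 0.07359, adjusted 0.1472). Again CKO 1, 3 and 6 stood farthest out, below every control. The ratios of Rcan2 to Rcan1 (difference −0.30, exact permutation P = 0.1407, adjusted 0.1876) and of Nfatc1 to Nfatc3 (difference 0.10, exact permutation P = 0.4199) overlapped between groups. No ratio passed 0.05.

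**Figure D3:**
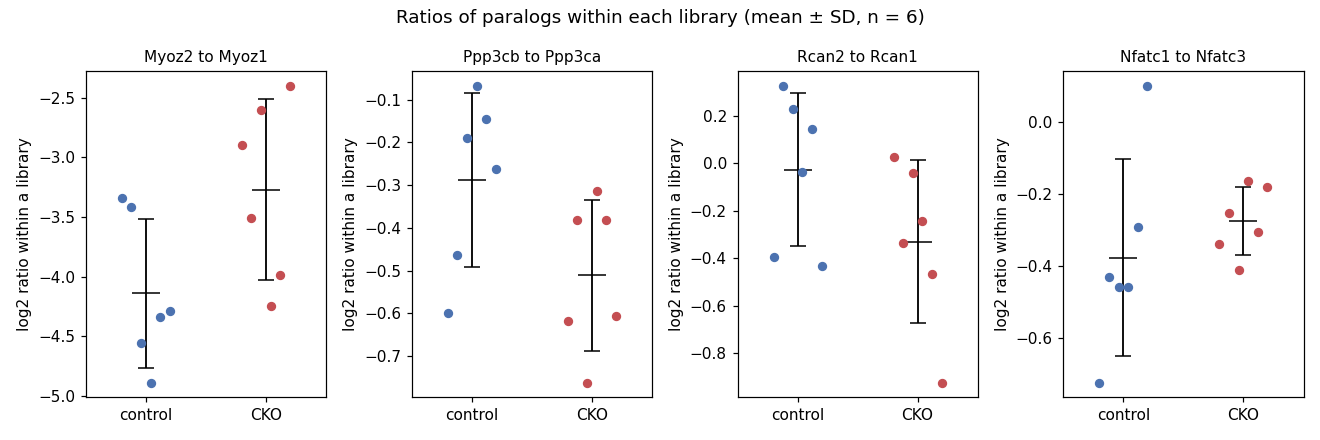
Log2 ratios of paralogs within each library, with controls in blue, CKOs in red, and bars for the mean ± SD of 6 mice. The Myoz2 to Myoz1 ratio was above all controls in 3 CKOs and the Ppp3cb to Ppp3ca ratio was below all controls in 3 CKOs, and every ratio overlaps between groups.

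Expressed as shares, Myoz2 made up 5.51% ± 2.37 of the summed calsarcin FPKM in the controls and 9.60% ± 4.18 in the CKOs (SD, n = 6 each), so Myoz1 remained the main calsarcin at 90.8% ± 1.98 and 85.4% ± 5.09. Ppp3ca made up 50.6% ± 2.61 of the catalytic subunit FPKM in controls and 54.0% ± 2.13 in CKOs, Ppp3cb 41.5% ± 3.79 and 37.9% ± 3.42, and Ppp3cc, the third catalytic gene, 7.84% ± 1.81 and 8.04% ± 2.35. Nfatc3 remained the most abundant calcium-regulated NFAT gene at 49.8% ± 4.81 and 46.7% ± 2.02 of the NFAT FPKM. These shares are descriptions and were not tested apart from the ratios above.

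Beyond the 10 genes, 24 further genes were listed with the pathway and 22 were tested. Of these, 0 passed the adjusted threshold (limma), and 2 were higher and 1 was lower at an unadjusted P of 0.05. Their median log2 fold change was −0.05, with 10 of 22 above 0, and after median-ratio scaling 0 were higher and 7 were lower. For these counts and those of the lists below, the shares over all genes were 18.1% higher and 1.76% lower as deposited. After median-ratio scaling, 841 were higher and 944 lower of the 12695 genes tested. Ppp3r2 and Ppia were not tested because both were listed at or near 0 in every library. Reads with more than 1 place in the genome were dropped, so a value near 0 does not show that a gene is not expressed.

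Of the calmodulins and other calcineurin subunits, 4 were tested and 0 passed the adjusted threshold (limma). Calm3, which encodes a calmodulin, ran from 25.4 through 33.6 to 43.5 FPKM in controls and from 23.0 through 26.1 to 37.0 FPKM in CKOs. Its log2 fold change was −0.25 (95% interval −0.58 to 0.08, limma, adjusted P = 0.3783).

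Among the other calcineurin inhibitors, anchors and immunophilins, 1 of 9 tested was higher and 0 lower at an unadjusted P of 0.05, against 0 higher and 1 lower after median-ratio scaling. The gene that was higher as deposited was Myoz3, the third calsarcin, at 6.48 through 10.5 to 12.5 FPKM in controls and 11.7 through 14.5 to 19.7 FPKM in CKOs. CKO 1, 3, 5 and 6 exceeded every control, and the log2 fold change was 0.58 ± 0.17 (SE; limma, adjusted P = 0.09409), or 0.39 after median-ratio scaling (adjusted P = 0.3782). Homer1, a scaffold protein of calcium signaling complexes, was second by P in this list at −0.24 (adjusted P = 0.3804).

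Kinases that phosphorylate NFAT, and so oppose calcineurin, gave 1 of 7 higher and 0 lower at an unadjusted P of 0.05, and 0 higher and 4 lower (Gsk3a, Gsk3b, Dyrk1a and Csnk1e) after median-ratio scaling, with none past the adjusted threshold on either scale (limma). Csnk1d ran from 3.07 through 4.05 to 4.36 FPKM in controls and from 4.21 through 4.77 to 5.38 FPKM in CKOs, with a log2 fold change of 0.30 (limma, adjusted P = 0.1604) that was 0.12 after median-ratio scaling. Dyrk1a was at −0.18 (adjusted P = 0.3453), and at −0.37 after median-ratio scaling (adjusted P = 0.1612). The other NFAT factors, Nfat5 at 0.17 (adjusted P = 0.33) and Nfatc4 at 0.15 (adjusted P = 0.7261), did not pass either threshold. Nfat5 was not among the calcium-regulated NFAT genes whose shares are given above.

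Calsarcins bind alpha-actinin, filamin C and telethonin at the Z-disc. Of the 6 partner genes tested, 1 was higher and 0 lower at an unadjusted P of 0.05, 0 were higher and 1 lower after median-ratio scaling, and 0 passed after adjustment as deposited (limma). Actn2 averaged 192 ± 40.2 FPKM in the controls and 262.8 ± 66.7 FPKM in the CKOs (SD, n = 6 each; log2 fold change 0.43, adjusted P = 0.2263). Actn3, the alpha-actinin of fast fibers, averaged 658.9 ± 113.6 and 534.1 ± 172.1 FPKM (SD, n = 6 each; log2 fold change −0.34, adjusted P = 0.3295). Neither difference passed the adjusted threshold.

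Slow-fiber genes are the textbook output of calcineurin-NFAT signaling in muscle, and Myoz2 itself is a slow-fiber gene. Of 11 slow-fiber genes tested, 8 were higher at an unadjusted P of 0.05, beside 18.1% of all genes, and 1 after adjustment, beside 2.02%. Their median log2 fold change was 1.18, or 0.99 after median-ratio scaling. Myl3 and Mb were below 0, at −0.52 (limma, adjusted P = 0.3296) and −0.19 (adjusted P = 0.4374), and with median-ratio scaling these 2 were lower and 7 others higher at an unadjusted P of 0.05. The gene that passed was Myh7b, a slow-type myosin heavy chain gene, at 0.175 ± 0.0551 FPKM in the controls and 0.438 ± 0.161 FPKM in the CKOs (SD, n = 6 each; limma, adjusted P = 0.04697). All 6 CKOs were above every control for Myh7b, but the adjusted P was 0.1134 after median-ratio scaling (limma). Myh7b passed under 5 of the 19 alternatives that tested it, and its level in the controls was close to the filter limit of 0.1 FPKM.

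For 6 of the 11, Myh7, Tnni1, Tnnc1, Tnnt1, Myl2 and Atp2a2, the highest CKOs were CKO 1, 3 and 6, as for Myoz2. The other slow-fiber genes did not share this split: Myh7b and Tpm3 were higher in CKO 4 than in CKO 6 and CKO 3, respectively, Casq2 was higher in CKO 2 than in CKO 1 and 3, Mb was highest in CKO 2 and 5, and Myl3 was lowest in CKO 3. Myh7, the slow myosin heavy chain, was at 16.5, 7.81 and 37.5 FPKM in CKO 1, 3 and 6 and at 0.419 to 2.51 FPKM in the other CKOs, against 0.204 to 2.25 FPKM in controls. Tnni1, slow troponin I, was at 5.49, 4.19 and 15.7 FPKM in CKO 1, 3 and 6 and at 0.0906 to 1.21 FPKM in the other CKOs, against 0.140 to 0.904 FPKM in controls. CKO 2, 4 and 5 thus stayed near the control range for Myh7 and Tnni1 while their Myoz2, at 20.6, 16.7 and 21.6 FPKM, was above that of 4 controls. Rcan1 did not follow this split, being at 11.5, 10.7 and 22.8 FPKM in CKO 1, 3 and 6 and at 10.3, 11.6 and 14.4 FPKM in CKO 2, 4 and 5. In bulk muscle, more fibers of a type and more RNA per fiber cannot be told apart.

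**Figure D4:**
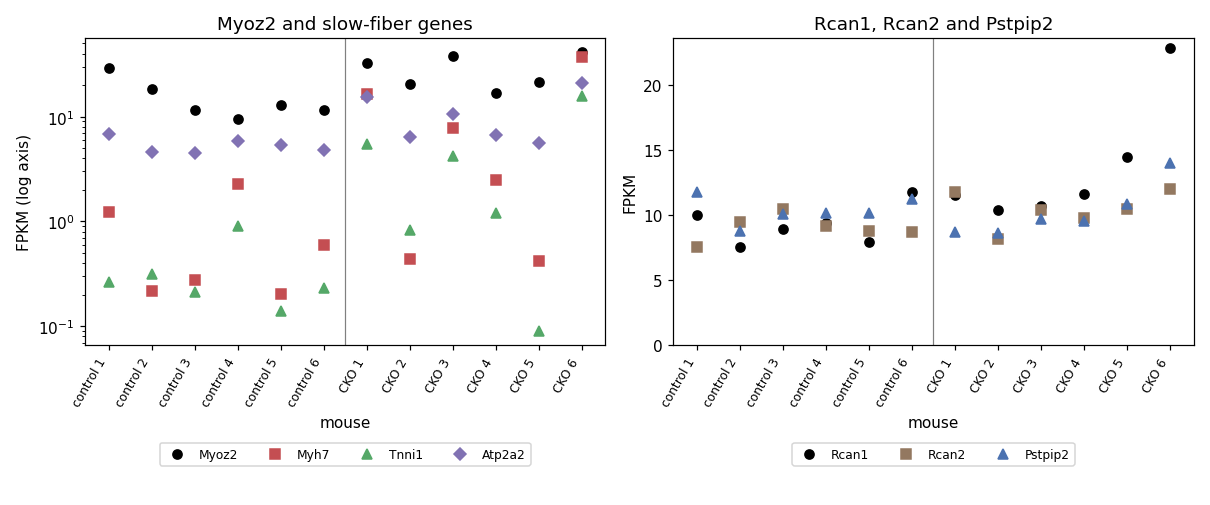
FPKM by mouse, controls to the left of the grey line and CKOs to the right. The left panel (log axis) shows Myoz2 with the slow-fiber genes Myh7, Tnni1 and Atp2a2, all highest in CKO 6, CKO 1 and CKO 3, and the right panel (linear axis from 0) shows Rcan1, Rcan2 and Pstpip2, with Rcan1 at 22.8 FPKM in CKO 6.

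Of 9 fast-fiber genes tested, 2 were higher and 0 lower at an unadjusted P of 0.05, beside 18.1% and 1.76% of all genes. After adjustment 1 was higher, beside 2.02%. Their median log2 fold change was −0.20. After median-ratio scaling 2 were higher and 4 were lower at an unadjusted P of 0.05, and the median was −0.39. Myh1, the myosin heavy chain of type IIX fibers, rose from 974.7 ± 91.0 to 2082 ± 572.9 FPKM (SD, n = 6 each; log2 fold change 1.05, limma, adjusted P = 0.007335). It passed under all 20 alternatives. Myh4, the myosin heavy chain of type IIB fibers, was second (log2 fold change 0.77, adjusted P = 0.05991). Myosin heavy chain genes are close in sequence, and reads that fit more than 1 place were dropped by the authors, so their values are uncertain.

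Transcripts whose deviations from the group means most resembled those of Rcan1 and of Myoz2 over the 12 mice were ranked by Pearson r among 7968 genes, as a description without a test. For Rcan1 they were Pstpip2 (r = 0.93), Dcaf10 (r = 0.84), Psmd11 (r = 0.83), 1700025G04Rik (r = 0.80) and Slk (r = 0.80). All 5 were highest in CKO 6, as Rcan1 was, and Pstpip2 was at 14.0 FPKM there and 8.58 to 11.7 FPKM in the other mice. For Myoz2 they were Cndp2 (r = 0.93), Csrp3 (r = 0.92), Itfg3 (r = 0.91), Eny2 (r = 0.91) and Apol6 (r = 0.91). Csrp3, which encodes the muscle LIM protein of the Z-disc, was at 146.9 FPKM in control 1, the control with the highest Myoz2, and at 118.7 FPKM in CKO 6, the CKO with the highest. The points share their libraries, so a library that stands apart raises r for many genes at once.

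The muscle identity of the samples held in every library, with 5 muscle fiber markers summing to 15330 to 26520 FPKM in controls and 14300 to 20000 FPKM in CKOs. Lymphoid and Schwann cell markers were low, with lymphoid markers summing to at most 0.397 FPKM and Schwann cell markers to at most 8.01 FPKM in any library. None of the marker genes passed the adjusted threshold (limma). At an unadjusted P of 0.05, 18.1% of all genes were higher and 1.76% lower in CKOs. The counts of markers higher were 2 of 5 for fibroblasts, 2 of 3 for satellite cells and 2 of 2 for adipocytes. They were 1 of 3 for Schwann cells and 1 of 5 for muscle fibers. The count was 0 for endothelial cells, macrophages, lymphocytes (1 of 5 markers tested), smooth muscle and tendon, and 1 muscle fiber marker was lower. After median-ratio scaling, 1 marker was higher in each of the fibroblast, satellite cell, adipocyte and muscle fiber lists. In the other lists, Schwann cells among them, none was higher, and 2 muscle fiber markers were lower. On that scale 841 of the 12695 genes tested were higher and 944 were lower. Satellite cell markers summed to 1.31 to 1.97 FPKM in controls and 1.92 to 3.02 FPKM in CKOs, and adipocyte markers to 0.646 to 2.38 FPKM and 1.84 to 6.40 FPKM. The part of these cells in the levels of the 10 genes was not tested.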

How the data were processed

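RNA from the tibialis anterior of 12 mice was depleted of ribosomal RNA by the authors with the ScriptSeq Complete Gold kit. Per the study's methods, adapters were trimmed and bowtie2 and tophat aligned the reads at up to 2 mismatches. The authors dropped reads with more than 1 place in the genome and deposited FPKM per gene symbol made with cufflinks. The submitters' processing notes name TopHat2 2.0.10, Cufflinks 2.1.1 and mm9, and the annotation is not given in the sources used here. The authors' own test on counts was not repeated, since counts were not analysed here.

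Of the 23950 rows in each deposited file, 27 were left out because a date stood where the symbol should be. Groups were compared on log2(FPKM + 0.1) with a trended limma fit (limma 3.58.1, R 4.3.3) of the genes that reached 0.1 FPKM in 6 or more samples, with Benjamini-Hochberg adjustment over the 12695 genes tested and a threshold of 0.05. Paralog ratios were compared by an exact permutation test. The code was checked on simulated data. The alternatives were no filter or one at 1 FPKM, a pseudocount of 1, median-ratio scaling (by the median ratio of each library to the geometric mean over libraries), quantile normalization, no trend, sample weights, the replicate number as a block, and each mouse left out in turn. The 10 genes and the gene lists were chosen with earlier results of these data known. The text names the 10 genes, Smyd1, in each other list the genes past the adjusted threshold or otherwise the 2 with the smallest P, and the 5 genes most like Rcan1 and Myoz2. One gene that meets this rule is not reported here, and it stays in the fit and the counts. Ppp3cc, the slow-fiber genes other than Myh7b, Gsk3a, Gsk3b, Csnk1e, and Myh4 beside Myh1, were named in addition after their values were seen.

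Depth in reads is unknown because the files hold no counts, so no counting interval is given. Relative depth was estimated from the spacing of FPKM values under 0.15 and spanned a 1.80-fold range, with control 1 set to 1: CKO 5 was shallowest at 0.984 and CKO 1 deepest at 1.77. Promoter sequences are RefSeq's on GRCm38.p6, and gene overlaps come from GENCODE on GRCm38. No coordinates were converted.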

Additional observations from a re-analysis of the deposited data

Results flagged for a closer look

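Rcan1 in CKO 6 was flagged because it stood apart from the other mice of its group. Its level there was 22.8 FPKM and the next highest CKO, CKO 5, was at 14.4 FPKM. The gap between them was 0.671 of the range of the group in FPKM, above Dixon's 95% critical value for 6 samples. Genes were checked on FPKM and not on the log2 values used in the tests, so the flag holds for that scale only. Of 28 groups of 6 mice looked at in this way, this was 1, and chance alone flags about 1 in 20. The same mouse had the highest Myoz2, Nfatc1, Nfatc2, Nfatc3, Ppp3ca and Rcan2 of the CKOs and the highest Myh7 and Tnni1 of all mice. No explanation was tested.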

How the results depend on the processing

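The count of the 10 genes lower in CKO muscle at an adjusted P of 0.05 was 0 in all 20 alternatives, and the count higher was 1 (Myoz2) with sample weights and 0 to 1 with a mouse left out (1 without control 1). Rcan1 kept its direction and stayed short of the adjusted threshold throughout (adjusted P 0.05634 to 0.4301), with an unadjusted P below 0.05 in 19 of 20. Myoz2 had an unadjusted P below 0.05 in all 20 (adjusted P 0.009834 to 0.2062). Over all genes, the count higher was 170 with no filter, 97 with median-ratio scaling, 101 with quantile normalization, 1400 with sample weights and 84 (without CKO 1) to 1067 (without control 1) with a mouse left out. The count lower was 90 with median-ratio scaling, 68 with quantile normalization, 115 with sample weights and 18 to 69 with a mouse left out. The direction turned for Nfatc1, Ppp3ca and Myoz1. Nfatc1 was at −0.001 with a pseudocount of 1, −0.18 with median-ratio scaling, −0.19 with quantile normalization, −0.056 with sample weights and −0.067 to 0.075 with a mouse left out. Ppp3ca was at −0.18, −0.11 and −0.038 to 0.069 with median-ratio scaling, quantile normalization and a mouse left out, and Myoz1 at −0.16 with median-ratio scaling and −0.049 to 0.081 with a mouse left out. The log2 ratio of Myoz2 to Myoz1 differed by 0.69 to 1.06, that of Ppp3cb to Ppp3ca by −0.28 to −0.17 and that of Nfatc1 to Nfatc3 by 0.032 to 0.196 with a mouse left out, and each passed an exact permutation P of 0.05 in some of these (0.0303 without CKO 4, 0.02381 without control 1 and 0.01948 without control 6). The cause of these shifts was not tested beyond what the settings themselves change.

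Mice with the same replicate number are not stated to share anything but the number. Their deviations across genes had correlations of −0.086 to 0.164, and each matched its own number best in 2 of 6. In a fit that blocks on the replicate number, the counts for the 10 genes at the adjusted threshold stayed at 0 and those over all genes were 272 higher and 40 lower, Rcan1 had an adjusted P of 0.05634 (limma), and the ratios had exact sign-flip P of 0.0625, 0.09375, 0.125 and 0.3438.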
